A study of Mus musculus with 22 samples.

Results

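The genes described here are the collagens, laminins and integrins of sorted lung epithelial cells (ECs), 93 of the 21793 protein-coding genes in the deposited tables. They were taken by symbol, as every protein-coding gene named as a collagen chain (Col), a laminin chain (Lama, Lamb, Lamc) or an integrin chain (Itga, Itgb), together with Nid1, Nid2, Fn1, Fbn1, Fndc1, Sfrp1 and Sfrp2. By role they comprise 8 basement membrane collagens, 11 fibrillar collagens, 9 FACIT collagens, 12 beaded, anchoring and network collagens, 4 transmembrane collagens, 11 laminins, 2 nidogens, 9 collagen and laminin receptor integrins, 9 receptors for RGD and other matrix motifs, 8 leukocyte integrins and the 5 other listed genes. The symbol pattern also took 5 genes that are not chains (Col4a3bp, Itgb1bp1, Itgb1bp2, Itgb3bp and Itgbl1). RNA of the ECs was sequenced from wildtype (WT) mice and from mice with a full-body deletion of the aryl hydrocarbon receptor (AhR-/-) or of the cytochrome P450 enzyme CYP1B1 (CYP1B1-/-), all on the C57BL/6 background and more than 7 weeks old. The naive mice gave 4 WT, 3 AhR-/- and 3 CYP1B1-/- libraries. Mice exposed to house dust mite extract (HDM), which causes allergic airway inflammation, gave 4 libraries of each genotype, collected 72 h after the last instillation. The lungs were filled with dispase, which digests the tissue, and then with low-melt agarose, which was left to set. Live single cells without CD45 (a leukocyte protein) or CD31 (an endothelial protein) and with EpCAM (an epithelial protein) were sorted.

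Epithelia rest on a basement membrane, a sheet in which laminin trimers and a network of type IV collagen are linked by nidogens. Type IV collagen is built from trimers of alpha chains, and the trimer of the alpha 3, 4 and 5 chains is known from the lung alveolus and the kidney filter, whereas the trimer of the alpha 1 and 2 chains is found in nearly all basement membranes. Integrins are receptors of 1 alpha and 1 beta chain. The beta 1 chain with alpha 3 binds laminin, alpha v with beta 6 or beta 5 binds matrix with an RGD motif, and beta 2 and beta 7 with their partners are carried by leukocytes. Fibrillar collagens are made mainly by fibroblasts.

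Since the study removes AhR, upstream sequences of members are shown for the letters GCGTG, the core of the element that AhR is known to bind together with ARNT. The sequences are those of RefSeq, and 66 of the 93 members matched an entry. Shown are the 250 bases before the start site of the members with the lowest p in each direction between AhR-/- and WT after HDM, among those with an entry, with GCGTG on either strand in capitals.
Itgb5 (GRCm38.p6, chr16:33829415-33829664, plus strand): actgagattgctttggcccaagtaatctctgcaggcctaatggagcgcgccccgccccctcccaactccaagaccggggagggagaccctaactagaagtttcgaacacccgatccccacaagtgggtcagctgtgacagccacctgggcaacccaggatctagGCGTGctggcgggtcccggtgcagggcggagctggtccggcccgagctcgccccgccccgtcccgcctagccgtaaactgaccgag
Itgb1 (GRCm38.p6, chr8:128685404-128685653, plus strand): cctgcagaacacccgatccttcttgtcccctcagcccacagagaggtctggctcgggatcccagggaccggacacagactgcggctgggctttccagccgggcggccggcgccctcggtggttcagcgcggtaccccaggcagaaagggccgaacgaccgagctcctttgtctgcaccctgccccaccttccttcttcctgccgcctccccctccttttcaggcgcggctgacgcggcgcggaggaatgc
Itga5 (GRCm38.p6, chr15:103366792-103367041, minus strand): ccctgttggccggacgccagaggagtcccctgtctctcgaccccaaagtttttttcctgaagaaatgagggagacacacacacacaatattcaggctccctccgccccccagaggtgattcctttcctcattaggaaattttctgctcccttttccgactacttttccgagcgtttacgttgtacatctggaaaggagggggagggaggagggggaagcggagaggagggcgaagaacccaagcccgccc
Itgb7 (GRCm38.p6, chr15:102231936-102232185, minus strand): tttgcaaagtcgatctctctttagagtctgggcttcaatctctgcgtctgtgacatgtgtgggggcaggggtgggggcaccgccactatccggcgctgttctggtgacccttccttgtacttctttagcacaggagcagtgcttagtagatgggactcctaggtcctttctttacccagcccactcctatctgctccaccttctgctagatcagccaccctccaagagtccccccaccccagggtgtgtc
GCGTG was found once before Itgb5 and not in the printed bases of Itgb1, Itga5 or Itgb7. Over the full windows, from 250 bases before to 50 after the start, 20 of the 72 member promoters held GCGTG on at least 1 strand (27.8%), against 32.4% of the 32851 promoters of the table. The longer form TNGCGTG, which contains GCGTG, was in 0 of the 72 member promoters and in 5.07% of all promoters. A match is a description of letters, and its absence says only that these letters are not in the window.

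The genes of type IV collagen lie head to head in pairs, shown here because the chains of a pair are described together below. Between the start sites of Col4a1 (minus strand) and Col4a2 (plus strand) the distance is 21 bases, between Col4a4 (minus) and Col4a3 (plus) 72 bases, and between Col4a6 (minus) and Col4a5 (plus) on chromosome X 1309 bases. The first and last base, in capitals, are the start sites in the GENCODE annotation. Col4a1 and Col4a2 overlap over the printed stretch, so it belongs to both genes. The stretch of Col4a3 and Col4a4 lies between the genes.
Col4a1 and Col4a2 (GRCm38.p6, chr8:11312805-11312826, plus strand): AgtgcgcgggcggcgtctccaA
Col4a3 and Col4a4 (GRCm38.p6, chr1:82586849-82586921, plus strand): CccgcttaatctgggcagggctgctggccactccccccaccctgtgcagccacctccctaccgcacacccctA

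The libraries held 9654825 to 17878442 counts. A single predicted gene, Gm10800, took up to 71.9% of a library after HDM, and 3 counts correspond to 0.1075 to 1.365 CPM (the counts of a gene relative to the effective size of its library) across the libraries. All levels below are on a single TMM scale over the 22 libraries. The targeted genes were read first. Ahr was at 17.6 CPM in the naive libraries labelled AhR-/- and at 9.58 in WT, and at 21.8 and 15.3 after HDM, and Cyp1b1 was at 5.1 in the naive libraries labelled CYP1B1-/- and at 1.14 in WT, and at 8.04 and 1.79 after HDM. The means of the targeted genes were higher, not lower, in the libraries labelled as their knockouts. Counts per gene do not show which exons the reads came from, and reads outside a deleted part check nothing, so the genotypes are given as the labels state them. Naive and HDM libraries are in separate tables, and the state cannot be told apart from the run. Reads of 4 Y-linked genes were summed to 66.6 to 249.9 CPM in all 10 naive libraries and to 172 and 191 CPM in AhR-/- HDM 3 and 4, and to at most 0.258 CPM in the other HDM libraries. In WT, state and sex therefore cannot be told apart either, and every value of WT HDM against naive WT is also one between libraries without and with Y-linked reads. The epithelial markers, 6 genes with Epcam among them, were present in every library (526 to 2228 CPM). The 24 hematopoietic markers summed to 266 to 522 CPM in the naive libraries and to 2121 to 6580 CPM in WT after HDM, with Ptprc, which encodes CD45, at 209 to 637 CPM there in spite of the gate. Pecam1, the endothelial CD31, stayed at or below 21.2 CPM. In such bulk libraries, fewer cells of a type and less RNA per cell cannot be told apart.

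In the naive WT libraries, Itgb1, the common beta chain of laminin and collagen receptors, had a level per kilobase of exon of 221 ± 91.0 CPM per kb (SD, n = 4). Below it were Col4a3 at 127 ± 14.1 CPM per kb, Itgb6 at 95.4 ± 15.2, Col4a2 at 94.4 ± 17.4 and Itga3 at 88.0 ± 23.0. Of the neighbours named in this order, Col4a3 and Itgb6 had SD intervals that did not overlap, and those of the others did. Lama3 (30.8 ± 3.87 CPM per kb) and Lamb3 (69.2 ± 17.3), chains of epithelial laminins, were also among the highest 12 members. Of the 93 members, 14 had a mean of at least 100 CPM in naive WT and 26 of at least 10 CPM. Of the chains of the hemidesmosome of airway basal cells, Itgb4 was at 0.304 to 4.51 CPM and Col17a1 at 0.236 to 2.73 CPM over all groups. Itga6, a further chain, was at 3.60 to 22.8 CPM, highest in CYP1B1-/- HDM 2.

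Among the naive mice, the question was whether the genotypes differ without allergen. Between the libraries labelled AhR-/- and WT, 0 of the 89 members tested passed an adjusted p of 0.05 (edgeR's quasi-likelihood test), beside 0.0% of all genes, and 3 had an unadjusted p under 0.05. The lowest p among members higher in AhR-/- was that of Itga9, with a log2 fold change of 0.31 (SE 0.15, adjusted p = 0.9999). Among those lower in AhR-/-, Col12a1, a FACIT collagen, had a log2 fold change of -0.49 (SE 0.21) and Fn1, fibronectin, one of -1.58 (SE 0.70), both with an adjusted p of 0.9999 in edgeR. Fn1 was at 23.0, 15.7, 4.74 and 3.54 CPM in WT and at 2.58, 7.01 and 2.77 CPM in AhR-/-, with overlapping groups. The likelihood ratio test of edgeR, DESeq2 and limma voom also gave 0 members. The groups did not overlap for 3 members higher and 1 lower in AhR-/-, beside 3.56% of all genes (2.1% higher and 1.46% lower). Beside these values, 1 of 20 hematopoietic markers (median log2 fold change -1.91), 1 of 11 endothelial markers (median -0.99) and 0 of 5 mesothelial markers (median -0.89) had a log2 fold change above 0. Of these markers 0 passed in edgeR, with 2, 3 and 0 at an unadjusted p under 0.05, and their part in the differences was not tested. The median summed level in AhR-/- and WT was 304 and 316 CPM for hematopoietic, 308 and 284 for endothelial and 13.8 and 26.3 for mesothelial markers. The hematopoietic sum was 522.1 CPM in WT naive 1 and 322.4, 268.5 and 310.3 CPM in the other naive WT libraries.

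Between the naive libraries labelled CYP1B1-/- and WT, 0 of 89 members passed, beside 0.0129% of all genes (0.00643% in each direction), with 7 at an unadjusted p under 0.05 in edgeR and 0 past the threshold by the likelihood ratio test, DESeq2 and limma voom. Among the members higher in CYP1B1-/-, Sfrp2, Fndc1, Nid2, Itgb3 and Col4a3bp had the lowest p. Sfrp2, a secreted antagonist of Wnt ligands, was at 29.5, 16 and 9.37 CPM in CYP1B1-/- and at 3.70, 3.27, 3.12 and 6.76 CPM in WT. Every CYP1B1-/- library lay above every WT library for Sfrp2, with a log2 fold change of 2.06 (SE 0.52, adjusted p = 0.822, edgeR). Fndc1 (log2 fold change 1.44, SE 0.37) and Nid2 (1.44, SE 0.39) showed the same separation with the same adjusted p of 0.822 in edgeR. In all, the 2 groups did not overlap for 6 members, each higher in CYP1B1-/-, of 89 tested, beside 2.93% of all genes (1.78% higher and 1.15% lower). Beside these values, the 5 mesothelial markers all had a log2 fold change above 0 (median 1.16, 2 without overlap, summed level 23.8 to 101.2 against 21.5 to 56.0 CPM), whereas 1 of 13 mesenchymal markers (median -0.37) and 1 of 20 hematopoietic markers (median -1.67) did. Of these markers 0 passed in edgeR, with 2, 0 and 7 at an unadjusted p under 0.05, and their part in the differences was not tested. The hematopoietic sum was 265.5 to 328.2 CPM in CYP1B1-/- and 268.5 to 522.1 CPM in WT, highest in WT naive 1. In the library CYP1B1-/- naive 2, Col4a3 was at 378 CPM and Itgb6 at 269.6 CPM, against 1318 to 2089 and 712 to 817 CPM in the other libraries of that group, while Itgb1 was at 1918 CPM against 603 and 855.

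The comparison of WT after HDM with naive WT describes the members in allergic inflammation. Of the 90 members tested, 37 passed (beside 38.4% of all genes), 12 higher (beside 19.0%) and 25 lower (beside 19.4%) after HDM. The groups did not overlap for 11 members that were higher and 26 that were lower, beside 38.9% of all genes (17.7% and 21.2%). The total is near the background and says nothing about the members as a whole, whereas their roles moved apart. Transcripts of several basement membrane chains fell. All 6 chains of type IV collagen were lower, with log2 fold changes from -3.16 to -2.44, and so were 6 of 11 laminins, while Col15a1, Col18a1 and the other 5 laminins did not pass and Nid2 rose. The median log2 fold change was -2.71 for the 8 basement membrane collagens and -1.69 for the laminins, against -0.11 for all genes tested.

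Col4a3, an alpha chain of the alveolar trimer, was at 1202, 1312, 1432 and 1107 CPM in naive WT and at 208, 232, 103 and 22.9 CPM after HDM. Its log2 fold change was -3.16 (SE 0.72, adjusted p = 0.00137, edgeR), and the groups were far apart. Col4a1 was at 424, 598, 638 and 719 CPM and then at 189, 140.1, 74.4 and 34.1 CPM (log2 fold change -2.44, SE 0.51, adjusted p = 0.000532, edgeR). Laminin chains went the same way, Lama3 with a log2 fold change of -2.47 (SE 0.56), Lamb3 with one of -2.41 (SE 0.42) and Lamc1 with one of -2.05 (SE 0.39). Lamb2, a beta chain of other basement membrane laminins, had the lowest p of the laminins (log2 fold change -2.73, SE 0.40, adjusted p = 2.15e-05, edgeR). Within WT HDM, replicate 4 held the lowest value of Col4a1, Col4a3 and Lama3, and replicates 1 and 2 the highest.

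The integrins that bind matrix moved in both directions. Of the 9 collagen and laminin receptor integrins 3 were lower, 1 was higher and 5 did not pass (median log2 fold change -0.10), and of the 9 receptors for RGD and other matrix motifs 4 were lower, 1 (Itga5, 3.53) was higher and 4 did not pass (median -0.64). Itga3 and Itgb1, which together form a laminin receptor, had log2 fold changes of -2.54 (SE 0.47) and -2.26 (SE 0.40). Itgav, Itgb3, Itgb5 and Itgb6, receptors for RGD motifs, had log2 fold changes of -1.51 (SE 0.30), -2.12 (SE 0.35), -1.70 (SE 0.41) and -2.59 (SE 0.45), all with an adjusted p of at most 0.00217 in edgeR. Itgb6, the partner of alpha v in epithelium that activates latent TGF-beta, was at 539, 673, 699 and 802 CPM in naive WT and at 144, 131, 127 and 48.3 CPM after HDM. Itga7, a laminin receptor chain known from muscle, was the collagen and laminin receptor integrin that was higher after HDM, at 6.41 to 20.3 against 1.54 to 2.23 CPM (log2 fold change 2.58, SE 0.73).

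Leukocyte integrins rose in the same libraries, 7 of 8 past the threshold and with a median log2 fold change of 4.57. Itgae, the alpha E chain of a receptor that binds E-cadherin, was at 0.955, 1.11, 0.339 and 0.322 CPM in naive WT and at 293, 124, 207 and 161 CPM after HDM. Its log2 fold change of 8.16 (SE 1.02, adjusted p = 8.92e-06, edgeR) was the greatest of the 90 members. Its partner Itgb7 had a log2 fold change of 6.16 (SE 1.11), Itgax of myeloid cells one of 7.16 (SE 1.22), and Itgb2, the beta chain shared by the leukocyte receptors of the beta 2 family, one of 5.46 (SE 1.16). Itga4 (3.67, SE 0.63), Itgal (3.42, SE 0.70) and Itgam (3.67, SE 0.83) passed as well, and Itgb2l was the chain that did not pass. Itga5, the alpha chain of the fibronectin receptor, rose with them, from 1.49 to 2.86 CPM to 12.7 to 34.5 CPM (log2 fold change 3.53, SE 0.57, adjusted p = 5.18e-05, edgeR). The counts of Itgam are uncertain, since 68.7% of its exons are shared with a second gene model on the same strand.

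Of the fibrillar collagens, Col5a2 (log2 fold change -3.27, SE 0.46), Col1a1 (-1.72, SE 0.57), Col1a2 (-1.71, SE 0.55) and Col3a1 (-1.66, SE 0.54) were lower after HDM, and Col27a1 was higher (1.76, SE 0.43). Col12a1, at 99.8 to 129.9 CPM in naive WT and 5.06 to 18.8 CPM after HDM, was the FACIT collagen that passed (log2 fold change -3.37, SE 0.51, adjusted p = 2.57e-05, edgeR). Nid2, which links laminin to collagen, was higher (2.15, SE 0.47), and Nid1 did not pass. Itgb1bp1, which is not a chain, was higher (0.86, SE 0.30, adjusted p = 0.0247, edgeR). Of the 10 tested beaded, anchoring and network collagens, the 4 transmembrane collagens and the 5 other listed genes, 0 passed in edgeR, with 1, 2 and 1 at an unadjusted p under 0.05.

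Markers of other cells moved with these values. In WT, 22 of the 24 hematopoietic markers were higher after HDM, with a summed level of 2121 to 6580 against 269 to 522 CPM, and 8 of the 9 alveolar type 1 markers were lower, with 867 to 5421 against 24177 to 30356 CPM. Of the 10 alveolar type 2 markers 5 were higher (median log2 fold change 1.73, 6 without overlap), and of the 6 general epithelial markers 5 were lower (median -1.58), with a summed level of 526 to 920 against 1434 to 2228 CPM. Of the 13 tested mesenchymal markers 2 were lower (median -1.12). Of the 12 endothelial markers 2 were lower and 1 was higher (median -0.85), and their summed level of 56.7 to 115.9 against 264 to 342.6 CPM did not overlap. With the mean hematopoietic marker level as a covariate in the fit, 0 of the 90 members passed, beside 10 of all 16639 genes. Of the members, 8 had an unadjusted p under 0.05 (edgeR). The summed hematopoietic level separated the states in WT, so this fit cannot part state from marker level. With the mesenchymal marker level 31 members passed, beside 4508 of 16639 genes. The basement membrane collagens amounted to 12.5% to 13.9% of the summed alveolar type 1 markers in WT HDM and to 11.9% to 15.2% in naive WT, which overlap. The laminins amounted to 11.4% to 19.3% of that sum after HDM and to 7.63% to 9.5% before, without overlap.

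**Figure D1:**
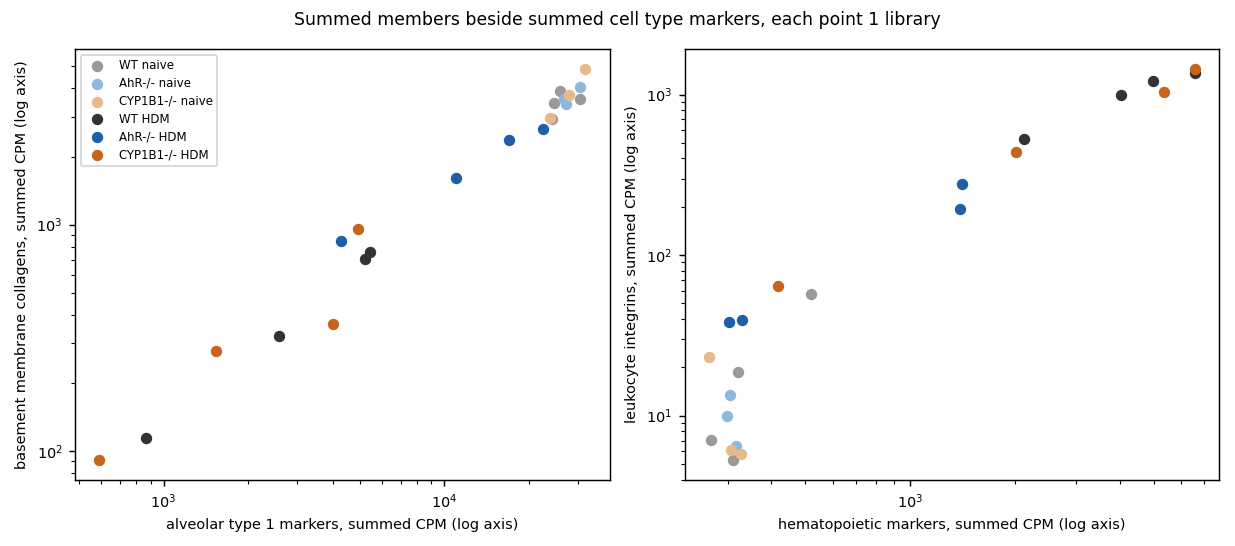
Each point is 1 library, with summed CPM on log axes: basement membrane collagens against alveolar type 1 markers (left) and leukocyte integrins against hematopoietic markers (right). On the left the naive libraries lie at 23895 to 31829 CPM of alveolar type 1 markers, with AhR-/- HDM 3 and 4 nearest to them (16938 and 22454 CPM). On the right these 2 libraries hold 39.6 and 38.5 CPM of leukocyte integrins, within the naive range of 5.29 to 57.3 CPM. The upper end of that range is WT naive 1 alone, and the other naive libraries hold at most 23.1 CPM.

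Other matrix genes were taken as lists. Of 21 enzymes that fold, crosslink or trim collagen, 1 was higher and 11 lower in WT after HDM, among them Colgalt2 (log2 fold change -3.55, SE 0.45), the lysyl oxidase Lox (-2.92, SE 0.44), the lysyl hydroxylase Plod2 (-4.32, SE 0.70) and the prolyl hydroxylase subunit P4ha1 (-1.93, SE 0.33). Of 14 tested metalloproteinases and inhibitors, 3 were higher and 4 lower, with the macrophage elastase Mmp12 at a log2 fold change of 7.30 (SE 1.27) and the inhibitor Timp3 at -3.65 (SE 0.66). Of 18 basement membrane proteoglycans and partners, 1 was higher and 9 lower, including the peroxidase Pxdn that crosslinks type IV collagen (-3.13, SE 0.53), the integrin ligand nephronectin Npnt (-3.04, SE 0.55) and agrin, Agrn (-2.59, SE 0.52). Of 25 cytoplasmic partners of integrins, 6 were higher and 13 lower: vinculin, Vcl, had a log2 fold change of -2.69 (SE 0.32) and the parvin of leukocytes, Parvg, one of 6.82 (SE 0.93). Of 14 other matrix receptors, 2 were higher and 7 lower, with Cd44 at 4.22 (SE 0.66) and dystroglycan, Dag1, at -3.12 (SE 0.51).

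**Figure D2:**
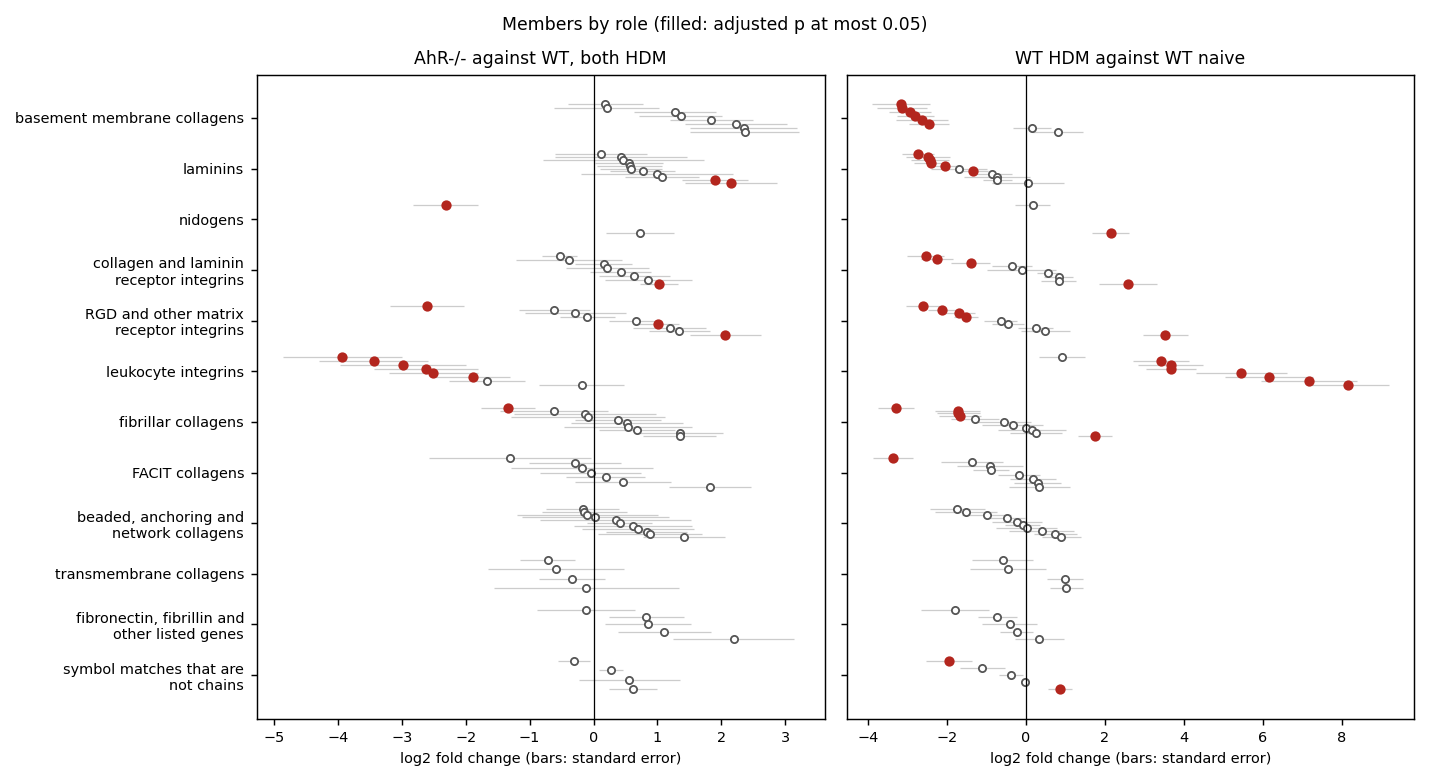
Log2 fold change of each tested member with its standard error (horizontal axes; filled points have an adjusted p of at most 0.05 in edgeR), by role, for AhR-/- against WT after HDM (left, 87 members) and WT HDM against naive WT (right, 90 members). On the right the 6 type IV collagen chains lie below 0 and the leukocyte integrins above it, and on the left all 8 basement membrane collagens and all 11 laminins lie above 0 and all 8 leukocyte integrins below it. The panels share the WT HDM libraries.

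What the loss of the receptor changes in inflamed ECs was examined by setting AhR-/- against WT within the HDM libraries. Of 87 members tested, 14 passed (beside 22.1% of all genes), 5 of them higher (beside 9.22%) and 9 lower (beside 12.9%) in the libraries labelled AhR-/-. The members higher were the integrin chains Itgb5, Itgb1 and Itgav and the laminin chains Lamc1 and Lama3. The members lower were 6 leukocyte integrins, Itga5, Nid2 and Col27a1. These shares of members do not exceed the background, so the counts are not a result about the members as a whole. An unadjusted p under 0.05 was held by 24 of the 87 members and by 5492 of the 14161 genes (edgeR). Fits that left out WT HDM 3, WT HDM 4, AhR-/- HDM 1, 3 or 4 gave 0 members past the threshold, and 0 of all genes. In these fits 21 to 24 members had an unadjusted p under 0.05 (edgeR). Without WT HDM 1, 4 of 88 members passed, beside 885 of 14437 genes. Without WT HDM 2 the number was 19 of 90, beside 3366 of 14956 genes. Without AhR-/- HDM 2 it was 20 of 88, beside 4137 of 14284 genes. The WT HDM libraries also enter WT HDM against naive WT, so the values of the members in the 2 comparisons are not independent.

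Itgb5 (GRCm38, chromosome 16, 33829665 to 33949338), a partner of alpha v, was at 16.7, 6.70, 22.7 and 21.4 CPM in AhR-/- and at 6.10, 5.58, 2.43 and 2.12 CPM in WT. The groups did not overlap, and the log2 fold change was 2.06 (SE 0.55, adjusted p = 0.0289, edgeR). Itgb1 (chromosome 8, 128685654 to 128733200) was at 381, 226, 469 and 458 CPM against 233, 178, 171 and 172 CPM, a log2 fold change of 1.02 (SE 0.30, adjusted p = 0.0343). Itgav was at 135, 77.5, 137 and 155 CPM against 84.8, 66.5, 56.9 and 42.6 CPM, a log2 fold change of 1.01 (SE 0.32, adjusted p = 0.0432). For Itgb1 and Itgav, AhR-/- HDM 2 lay within the WT range and the other AhR-/- libraries above it. Itgb6 did not overlap between the groups and missed the threshold (240.2, 152, 287 and 447 CPM against 144, 131, 127 and 48.3, log2 fold change 1.34, SE 0.48, adjusted p = 0.060). Itga3, the partner of beta 1 on laminin, had a log2 fold change of 0.64 (SE 0.56, adjusted p = 0.433, edgeR) with overlapping groups.

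**Figure D3:**
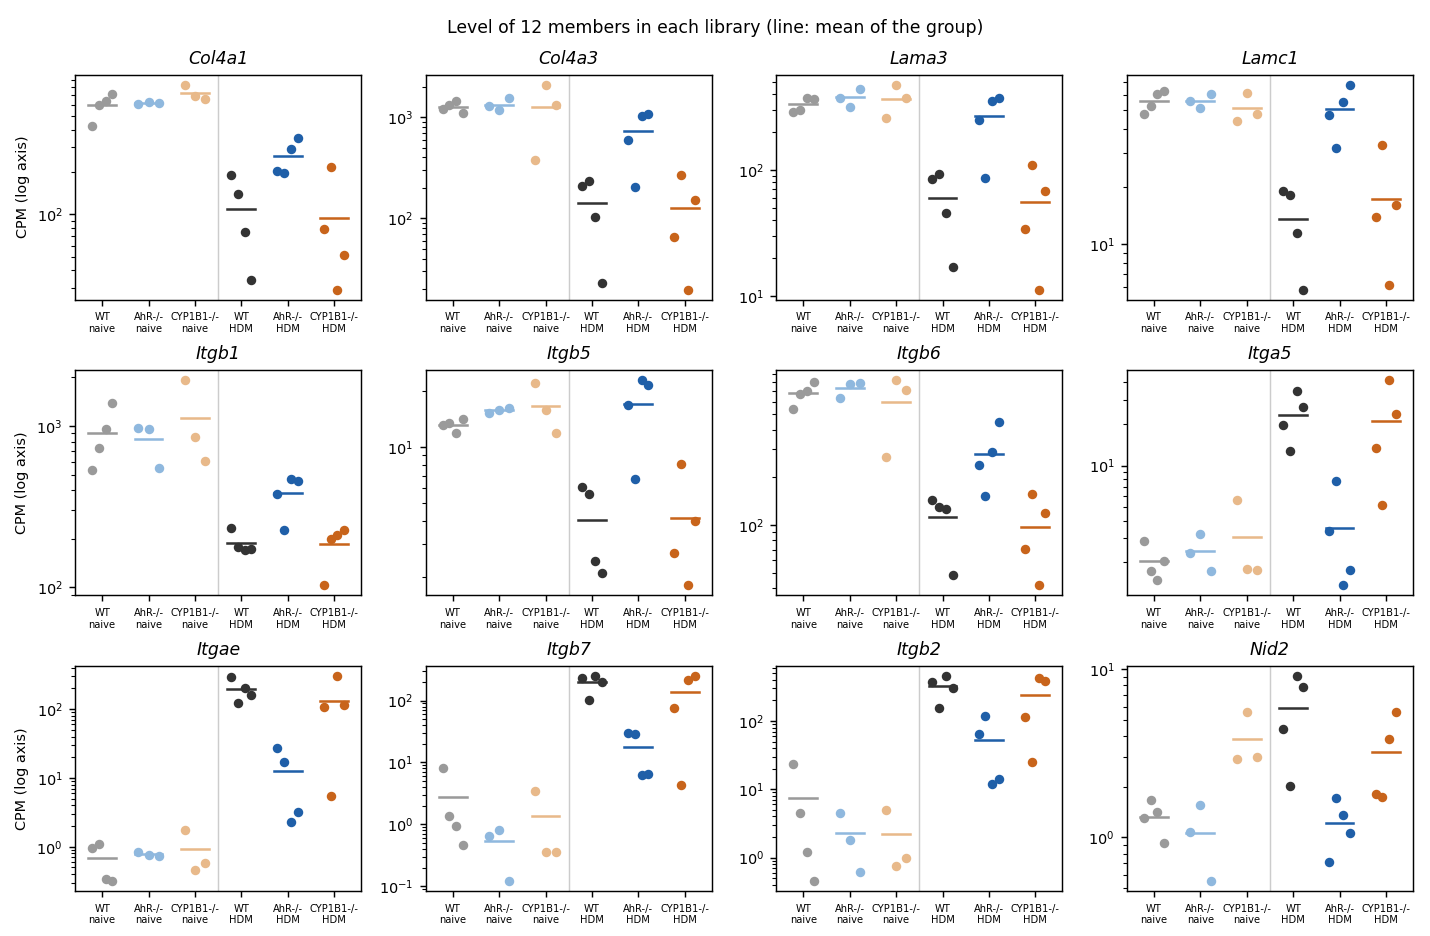
CPM of 12 members in every library on log axes, with the mean of each group as a line and naive groups left of the grey line. Col4a1, Col4a3, Lama3, Lamc1, Itgb1, Itgb5 and Itgb6 are low in WT HDM and nearer to the naive level in AhR-/- HDM, whereas Itga5, Itgae, Itgb7, Itgb2 and Nid2 are high in WT HDM. CYP1B1-/- HDM 2 is the lowest of its group for Itga5, Itgae, Itgb7 and Itgb2.

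Among the laminins, all 11 had a log2 fold change above 0 and 2 passed, with a median of 0.59 against -0.00 for all genes tested. Lamc1 (chromosome 1, 153218922 to 153332786), the gamma chain of most laminins, was at 47.2, 31.8, 55.1 and 67.5 CPM in AhR-/- and at 18.9, 18, 11.4 and 5.83 CPM in WT (log2 fold change 1.91, SE 0.52, adjusted p = 0.0293, edgeR). Lama3 was at 248, 87.1, 352 and 375 CPM against 84.3, 92.4, 45.2 and 17.1 CPM (log2 fold change 2.15, SE 0.72, adjusted p = 0.0488). Lamc1 separated the groups, and Lama3 did so apart from AhR-/- HDM 2. Lamb3 did not pass (log2 fold change 0.57, SE 0.51, adjusted p = 0.446). Lama5 (0.59, SE 0.49) and Lamb2 (0.77, SE 0.51) did not pass either.

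Of the basement membrane collagens, 0 of 8 passed in edgeR's quasi-likelihood test with 4 at an unadjusted p under 0.05, and all 8 had a log2 fold change above 0 (median 1.61). Col4a3 was at 597, 205, 1037 and 1070 CPM in AhR-/- and at 208, 232, 103 and 22.9 CPM in WT, and its log2 fold change of 2.36 (SE 0.85) came with an adjusted p of 0.0613. Col4a4, its head-to-head neighbour, was at 432, 179.6, 448 and 579 CPM against 129.6, 125, 51.1 and 15.1 CPM (log2 fold change 2.35, SE 0.83, adjusted p = 0.0584). Col4a5 (2.23, SE 0.79) and Col4a6 (1.84, SE 0.65) had an adjusted p of 0.0591 and 0.0566 in edgeR, whereas Col4a1 (1.28, SE 0.64) and Col4a2 (1.37, SE 0.65) had one of 0.161 and 0.140. The groups did not overlap for Col4a1, Col4a2, Col4a4 and Col4a5. Over all members, the groups did not overlap for 8 that were higher and 10 that were lower in AhR-/-, of 87, beside 19.5% of all genes (9.6% higher and 9.91% lower).

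The ratio of chains within a library does not depend on the scaling between libraries and was computed after the values had been seen, with no test. The summed level per kilobase of Col4a3, Col4a4 and Col4a5 over that of Col4a1 and Col4a2 was 2.74, 1.08, 2.60 and 2.30 in the AhR-/- HDM libraries and 0.961, 1.36, 1.09 and 0.679 in WT HDM. It was 1.10 to 1.63 in naive WT and 1.21 to 1.66 in naive AhR-/-. Hence 3 of the 4 AhR-/- HDM libraries exceeded every library of the other groups, the highest of which was CYP1B1-/- HDM 4, and AhR-/- HDM 2 lay within WT HDM.

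**Figure D4:**
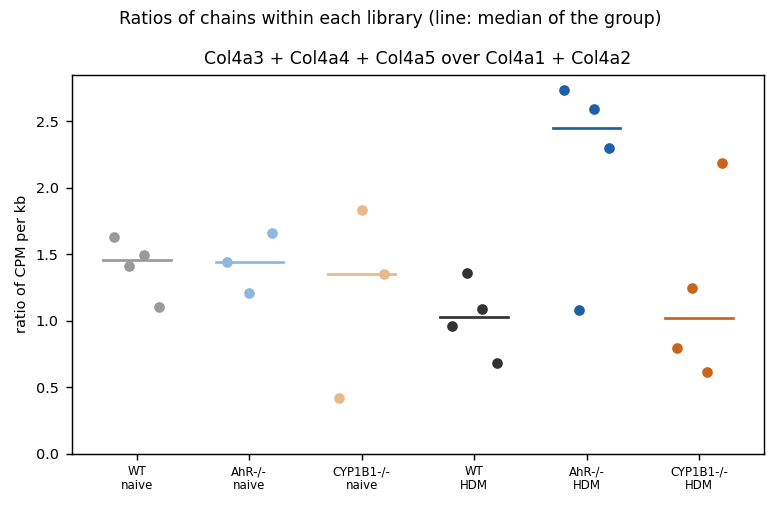
Ratio of levels (CPM per kb) of the alveolar chains of type IV collagen (Col4a3, Col4a4 and Col4a5) over the common chains (Col4a1 and Col4a2) within each library, with the median of each group as a line. Of the AhR-/- HDM libraries, 3 sit at 2.30 to 2.74 and the other at 1.08.

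Leukocyte integrins were lower in AhR-/-, 6 of 8 past the threshold with a median log2 fold change of -2.56. Itgae (chromosome 11, 73090583 to 73147446) was at 27.2, 17.1, 2.27 and 3.18 CPM in AhR-/- and at 293, 124, 207 and 161 CPM in WT. This difference had a log2 fold change of -3.93 (SE 0.94, adjusted p = 0.0261, edgeR) and no overlap, with 5 and 18 counts in AhR-/- HDM 3 and 4. Itgb7 (chromosome 15, 102215995 to 102231944), its partner, was at 29.6, 28.3, 6.37 and 6.54 CPM against 233, 102, 249.9 and 198 CPM (log2 fold change -3.44, SE 0.85, adjusted p = 0.0267). Itgb2 was at 64.6, 117, 11.8 and 14.1 CPM against 376, 158, 459 and 306 CPM (log2 fold change -2.62, SE 0.81, adjusted p = 0.0401). For Itgae, Itgb7 and Itgb2, AhR-/- HDM 3 and 4 were the lowest libraries, still above the highest naive WT library for Itgae alone. For Itgb7 and Itgb2 that highest library was WT naive 1 (8.17 and 23.4 CPM). The other naive WT libraries reached 1.36 and 4.44 CPM, below AhR-/- HDM 3 and 4. Itgax (-2.98, SE 0.98), Itgam (-2.51, SE 0.69) and Itga4 (-1.89, SE 0.59) passed as well, and Itgal did not (-1.67, SE 0.59, adjusted p = 0.0594, edgeR).

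Itga5 (chromosome 15, 103344286 to 103366763), whose promoter is shown above, was at 3.37, 7.73, 1.36 and 1.77 CPM in AhR-/- and at 19.7, 12.7, 34.5 and 26.7 CPM in WT (log2 fold change -2.61, SE 0.58, adjusted p = 0.0261, edgeR). Nid2 (chromosome 14, 19751265 to 19811787) was at 0.717, 1.72, 1.36 and 1.06 CPM against 4.39, 2.03, 9.13 and 7.89 CPM (log2 fold change -2.32, SE 0.51, adjusted p = 0.0261). Col27a1, a fibrillar collagen of cartilage and other tissues, was at 1.50, 1.72, 3.18 and 0.884 CPM against 3.54, 4.06, 5.48 and 4.04 CPM (log2 fold change -1.34, SE 0.43, adjusted p = 0.0421). The groups did not overlap for any of these genes, but the AhR-/- values rest on 3 to 94 counts a library for Itga5 (3 and 10 in AhR-/- HDM 3 and 4), 3 to 20 for Nid2 and 5 to 42 for Col27a1. Nid2 also shares 8.45% of its exons with a gene on the opposite strand.

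The remaining members did not pass. Col1a1 was at 4.51, 6.53, 6.82 and 4.77 CPM in AhR-/- and at 3.14, 7.61, 3.35 and 3.14 CPM in WT, with a log2 fold change of 0.38 (SE 0.67, adjusted p = 0.728, edgeR). Col1a2 (1.35, SE 0.67) and Col3a1 (0.68, SE 0.59) had adjusted p values of 0.158 and 0.433, and Col6a1 (-0.14, SE 0.67) and Col6a2 (0.41, SE 0.51), chains of the beaded collagen VI, had values of 0.904 and 0.593. Fn1 was at 4.23, 55.1, 10.5 and 6.89 CPM against 9.15, 10.1, 6.85 and 9.42 CPM, so that its log2 fold change of 1.11 (SE 0.73, adjusted p = 0.286) rested on AhR-/- HDM 2 and was -0.40 without it. Nid1, Fbn1, Sfrp1, Col17a1, Itga6 and Itgb4 had log2 fold changes from -0.34 to 0.83 with adjusted p values of at least 0.323.

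Markers of other cells moved with this comparison as well. The 24 hematopoietic markers summed to 302 to 1407 CPM in AhR-/- HDM and to 2121 to 6580 CPM in WT HDM, without overlap, and 9 of them passed, all lower. The 15 mesenchymal markers summed to 61.5 to 122.4 against 21.8 to 49.5 CPM, also without overlap, with 0 past the threshold in edgeR, and the alveolar type 1 markers to 4299 to 22454 against 867 to 5421 CPM, with 2 higher. All 4 club cell markers (median log2 fold change 2.12, 1 past the threshold, 2 without overlap) and all 6 ciliated cell markers (median 1.45, 1 past the threshold) had a log2 fold change above 0 as well. With the hematopoietic or the mesenchymal marker level as a covariate, 0 of 87 members and 0 of all 14161 genes passed. Of the members, 5 and 7 had an unadjusted p under 0.05 (edgeR). Both marker sums separated the genotypes, so these fits cannot part genotype from marker level and say nothing about the members as such. Under the hematopoietic covariate, the log2 fold change was -1.27 for Itga5, -1.90 for Nid2, -1.40 for Itgae, 0.73 for Lamc1, 0.67 for Itgb5 and 0.40 for Col4a3. The hematopoietic sums of AhR-/- HDM 3 and 4 (330.3 and 302 CPM) lay within the naive range. The upper end of that range was WT naive 1 (522.1 CPM), and the other naive libraries reached at most 328.2 CPM. The basement membrane collagens amounted to 11.8% to 19.7% of the alveolar type 1 sum against 12.5% to 13.9%, with overlap. The laminins amounted to 6.25% to 13.65% of it against 11.4% to 19.25% in WT HDM, also with overlap. The leukocyte integrins amounted to 11.98% to 19.66% of the hematopoietic sum against 20.7% to 25.04%. The fibrillar collagens amounted to 60.67% to 110.3% of the mesenchymal sum against 115.2% to 137.1%. Neither of these last ratios overlapped, and none was tested. Without AhR-/- HDM 3 and 4, the libraries with Y-linked reads, 0 of 91 members and 0 of all 15713 genes passed. Of the members, 11 had an unadjusted p under 0.05 (edgeR). The log2 fold change was then -3.16 for Itgae, -2.14 for Itga5, -2.37 for Nid2, 1.51 for Lamc1, 1.50 for Itgb5 and 1.44 for Col4a3.

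Of the lists of other matrix genes, the collagen enzymes had 2 higher and 1 lower of 17 tested in AhR-/- HDM: Lox (log2 fold change 1.84, SE 0.50) and Plod2 (2.58, SE 0.78) were higher and Colgalt1 (-0.96, SE 0.29) lower. Timp2, an inhibitor of metalloproteinases, was higher (2.17, SE 0.66), as the only gene called of 12 in its list, and so was Efemp1, a fibulin, of 17 basement membrane partners (1.75, SE 0.48). Of 25 cytoplasmic partners of integrins, 2 were higher and 5 lower, including Fermt3, the kindlin of blood cells (-3.31, SE 0.82), Parvg (-3.25, SE 0.80) and zyxin, Zyx (-2.74, SE 0.63), while tensin 2, Tns2, was higher (1.56, SE 0.45). Among 13 other matrix receptors, the tetraspanin Cd151, which associates with laminin receptors, was higher (2.03, SE 0.47), as was the syndecan Sdc2 (1.46, SE 0.34), and Sdc3 was lower (-3.28, SE 0.73), each with an adjusted p of 0.0261 in edgeR.

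Between CYP1B1-/- and WT after HDM, 0 of 87 members passed, beside 0.0% of all genes, and 4 had an unadjusted p under 0.05 (edgeR), with 0 also by the likelihood ratio test, DESeq2 and limma voom. Fibrillar collagens had the lowest p: Col1a2 (log2 fold change 1.69, SE 0.67), Col3a1 (1.42, SE 0.60) and Col1a1 (1.58, SE 0.67), each with an adjusted p of 0.999. Col1a1 was at 3.25, 33.7, 6.74 and 6.85 CPM in CYP1B1-/- and at 3.14, 7.61, 3.35 and 3.14 CPM in WT, and the highest value was that of CYP1B1-/- HDM 2, in which the mesenchymal markers summed to 124.8 CPM. The mesenchymal sum was nearly as high in CYP1B1-/- HDM 4 (114 CPM), where Col1a1 was at 6.85 CPM, and was 26.9 and 40.2 CPM in CYP1B1-/- HDM 1 and 3, against 21.8 to 49.5 CPM in WT HDM. All 13 tested mesenchymal markers (median log2 fold change 1.09), all 4 mesothelial (1.53), all 4 club cell (1.28) and all 6 ciliated cell markers (1.43) had a log2 fold change above 0. Of these 0 passed in edgeR, with 4, 1, 1 and 2 at an unadjusted p under 0.05, and their part in the differences was not tested. The groups overlapped for every member tested, beside 0.621% of all genes without overlap (0.424% higher and 0.198% lower).

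When AhR-/- was set directly against CYP1B1-/- after HDM, 0 of 87 members passed, beside 0.00706% of all genes (edgeR's quasi-likelihood test). An unadjusted p under 0.05 in that test was held by 25 members, and no share over all genes is given for it. The likelihood ratio test gave 20, DESeq2 24 and limma voom 25 of the 87 members, beside 2478, 2906 and 4222 of 14161 genes. Itga5 had the lowest p (log2 fold change -2.43, SE 0.57, adjusted p = 0.0638), followed by Itgae (-3.38, SE 0.91, adjusted p = 0.0638) and Itgb5 (2.04, SE 0.56, adjusted p = 0.0638). Itgb1 (1.05, SE 0.30) and Col4a6 (2.22, SE 0.67) had adjusted p values of 0.0639 and 0.0659. Markers of other cells moved beside them, with all 9 alveolar type 1 markers (median log2 fold change 2.23, 4 without overlap) and 14 of 24 hematopoietic markers (median -1.80) at an unadjusted p under 0.05 and 0 past the threshold in edgeR, and their part in the differences was not tested. Itgae was at 107, 5.48, 305 and 116 CPM in CYP1B1-/- HDM, and only the library CYP1B1-/- HDM 2 fell into the AhR-/- range of 2.27 to 27.2 CPM. The groups did not overlap for 1 member higher and 1 lower in AhR-/-, beside 6.96% of all genes (5.33% and 1.63%). Without CYP1B1-/- HDM 2, 25 of 90 members passed, 17 higher and 8 lower in AhR-/-, beside 3098 of 14965 genes. Without AhR-/- HDM 2 there were 15 of 88, beside 2683 of 14284 genes. Y-linked reads were in AhR-/- HDM 3 and 4 and at most at 0.201 CPM in CYP1B1-/- HDM. Without these 2 libraries 0 of 91 members passed and 6 had an unadjusted p under 0.05 (edgeR), and the log2 fold change was -2.60 for Itgae, -1.95 for Itga5, 1.52 for Itgb5, 0.68 for Itgb1 and 1.51 for Col4a6.

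Whether the difference between AhR-/- and WT depended on the state was tested as an interaction. It passed for 0 of 90 members, beside 0.0% of all genes, with 15 members at an unadjusted p under 0.05 (edgeR's quasi-likelihood test). The likelihood ratio test gave 2, DESeq2 6 and limma voom 27 of the 90 members, beside 287, 1236 and 4996 of 16639 genes. The lowest p was that of Itga5, whose log2 fold change of AhR-/- against WT after HDM minus that in naive mice was -2.86 (SE 0.80, adjusted p = 0.149). Lamc1 (1.90, SE 0.56), Col12a1 (2.29, SE 0.70) and Itgae (-4.10, SE 1.24) had the same adjusted p of 0.149. Without AhR-/- HDM 3 and 4, the libraries with Y-linked reads, 0 of 91 members passed and 8 had an unadjusted p under 0.05 (edgeR), with -2.35 for Itga5, 1.54 for Lamc1, 1.42 for Col12a1 and -3.33 for Itgae. Beside these values, the difference of differences was above 0 for all 9 alveolar type 1 (median 1.75), all 4 club cell (2.20), all 6 ciliated cell (1.79) and 12 of 13 mesenchymal markers (1.71). Of these 0 passed in edgeR, with 4, 1, 4 and 3 at an unadjusted p under 0.05, and their part in the interaction was not tested. A change of the genotype effect with HDM was thus not shown for any member by the quasi-likelihood test.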

How the data were processed

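RNA of sorted lung ECs was sequenced in 22 libraries. Per the methods of the study and the labels, the authors converted base calls with bcl2fastq (2.19.1), trimmed adapters with bbduk, aligned reads with GSNAP to mm10 (GRCm38) and counted reads per gene with featureCounts (2.0.0) on the Ensembl annotation, and they deposited whole-number counts, not normalized, in 1 table for the naive and 1 for the HDM libraries. Strand was not used here, so reads of overlapping genes on opposite strands cannot be told apart. Gene names came from GENCODE by Ensembl ID, which matched 54147 of 54373 IDs, 21793 of them protein-coding. Duplicate libraries were looked for by a chi-square test of counts and none were found.

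Protein-coding genes that passed edgeR's expression filter (minimum count 10, minimum total 15) were tested with edgeR (4.0.16) on R (4.3.3) by its robust quasi-likelihood test after TMM normalization, with Benjamini-Hochberg adjustment over all genes tested and a threshold of 0.05. Every adjusted p in the text is from this test unless another is named. The genotypes were compared within each table with all 3 genotypes in the fit, and the states and the interaction in a fit over the 22 libraries. The standard error (SE) of a log2 fold change is its size divided by the square root of F. The test was checked on simulated data. Alternatives used edgeR's likelihood ratio test, DESeq2 (1.42.0), limma voom (3.58.1), other filters and scalings, marker covariates, a replicate block and libraries left out. The labels do not say which libraries came from separate mice beyond their numbers, so p-values measure the spread between these libraries.

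Genes to name were drawn from the members past the threshold, at most 15 in each direction by lowest p, or up to 5 of lowest p where fewer passed, a fixed panel in AhR-/- against WT after HDM, and at most 4 genes of each other list. Not every gene so drawn is given with its values. The results of 1 member are not reported here by name, and it stays in the counts. Col4a5, Col4a6, Col12a1 and Itgb2l, in WT HDM against naive WT also Col4a3, Lama3, Itgb5, Col1a1, Col1a2, Col3a1, Col15a1, Col18a1 and Nid1, and the levels in single libraries outside the comparisons, were named after their values were seen. The members and lists were chosen with earlier results of these data known.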

Additional observations from a re-analysis of the deposited data

Results flagged for a closer look

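In 264 groups of 4 libraries, made of the named members and the summed levels of each role, 11 held a library farther from the others than Dixon's 95% critical value allows, where chance gives about 13.2. Values are log2(CPM + 0.1) for genes and log2 of summed CPM for roles.

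CYP1B1-/- HDM 2 was the highest library of its group for Nid1 (3.35, against 1.73 to 1.94 in the others), for the summed fibrillar collagens (7.45, against 5.31 to 5.61) and for the summed transmembrane collagens (3.53, against 2.82 to 2.89). CYP1B1-/- HDM 1 was the lowest for Itgb1 (6.69, against 7.64 to 7.83). WT HDM 4 was the lowest of its group for the RGD receptor chains Itgb3 (3.30, against 4.51 to 4.57) and Itgb6 (5.60, against 6.99 to 7.17). WT HDM 2 was the highest for Col1a1 (2.95, against 1.70 to 1.79) and the summed fibrillar collagens (5.99, against 4.87 to 4.99), and WT HDM 1 for Itgb1 (7.86, against 7.42 to 7.48). AhR-/- HDM 2 was the highest for the summed beaded, anchoring and network collagens (6.10, against 4.84 to 5.01), and AhR-/- HDM 1 held no read of Col19a1 (-3.32, against 0.01 to 0.42).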

How the results depend on the processing

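Members past the threshold numbered 0 in AhR-/- against WT in naive mice and in CYP1B1-/- against WT in either state under every alternative run. For AhR-/- against WT after HDM, 14 members passed, beside 3129 of 14161 genes. The number was 22 with DESeq2 (4592 genes) and 34 with limma voom (6643 genes). With at least 10 counts in every library it was 8 of 37, beside 2468 of 8157 genes. It was 0 with the replicate block (1 gene in all), 0 with the hematopoietic or the mesenchymal covariate (0 genes) and 0 without AhR-/- HDM 3 and 4 (0 genes). With 1 library left out it ranged from 0 to 20 (0 to 4137 genes). For AhR-/- against CYP1B1-/- after HDM the number of members was 0. It was 20 with the likelihood ratio test, 24 with DESeq2 and 25 with limma voom (2478, 2906 and 4222 of 14161 genes). With 1 library left out it was 0 to 25 (0 to 3098 genes). The interaction gave 0, but 2 with the likelihood ratio test, 6 with DESeq2 and 27 with limma voom (287, 1236 and 4996 of 16639 genes). A fit of only the groups compared gave 6 (1001 of 16137 genes), and fits with 1 library left out gave 0 to 5 (0 to 1017 genes). WT HDM against naive WT gave 37 (6391 of 16639 genes) and 0 with the hematopoietic covariate (10 genes). With 1 library left out it gave 33 to 40 (5408 to 6767 genes). The cause of these shifts was not tested.

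In AhR-/- against WT after HDM, the sign of the log2 fold change turned with the hematopoietic covariate for Col1a1 (-0.70), Col3a1 (-0.21), Col4a1 (-0.13), Col4a2 (-0.13), Col6a1 (0.0095), Lamb2 (-0.18), Lamb3 (-0.28), Nid1 (-0.052), Fbn1 (-0.35), Itga3 (-0.62) and Itgb4 (-0.29). With the mesenchymal covariate it turned for Col1a1 (-0.85), Col3a1 (-0.41), Col6a2 (-0.092), Nid1 (-0.11), Fbn1 (-0.17), Itga3 (-0.0017) and Itgb4 (-0.11). It also turned for Col6a1 without AhR-/- HDM 3 and 4 (0.53), and for Sfrp1 with limma voom (0.45) and without the genes of at least 1% of a library (0.011), which moved the median of all genes from -0.00 to 0.15. With 1 library left out, the log2 fold change ranged from -1.03 to 0.19 for Col6a1, from -0.26 to 0.63 for Col6a2, from -0.40 to 1.46 for Fn1, from -0.53 to 0.24 for Sfrp1 and from -0.037 to 0.93 for Itgb4. None of these genes had passed. For Fndc1 in naive AhR-/- against WT it ranged from -0.19 to 0.60. In WT HDM against naive WT, Itgal (-0.12) and Itgam (-0.23) turned with the hematopoietic covariate.

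Replicate numbers did not pair the libraries. Of 20 pairs with the same number in the same table, 8 had a correlation of deviations over 0.1 (range -0.564 to 0.748), and 8 of 22 libraries correlated best with their own number. With the number as a block, 40 members passed in WT HDM against naive WT, beside 6405 of 16639 genes, and 0 in each genotype comparison. In 1 AhR-/- HDM library 3 counts are 1.365 CPM, so values of members near or below that level, such as Nid2 in AhR-/- HDM, rest on few counts.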
